A study of Homo sapiens with 20 samples.

Results

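TNF, LTA, LTB and CD40LG encode 4 ligands of the tumor necrosis factor (TNF) superfamily, namely TNF, lymphotoxin alpha, lymphotoxin beta and CD40 ligand. They were chosen by gene name, are 4 of the 60719 genes in the gene table, and own 11 of the 232184 transcripts in the isoform table. RNA was sequenced from WT Jurkat cells, which derive from a human T cell leukemia, and JinB8 (CD47-), a CD47-deficient somatic mutant of Jurkat. Each line gave 10 libraries. Untreated cells were sequenced at 1 h, and 1 library per time (1, 3 or 6 h) was made from cells on plates coated with antibodies to CD3 and CD28 (CD3+CD28), on both antibodies with thrombospondin-1, a ligand of CD47 (CD3+CD28+TSP1), and with TSP1 alone. Anti-CD28 was coated at 4 μg/mL and TSP1 was added at 1 μg/mL, while the label and the methods differ on the unit of the anti-CD3 dose. All cells were kept in serum-free medium that contained hydrocortisone. JinB8 is a single mutant line, so loss of CD47 and other differences between the lines cannot be told apart. Each condition was sequenced once per line, and nothing states that the libraries came from separate cultures, so p-values measure the spread between these libraries.

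Ligands of this family are made as membrane proteins that form trimers and signal through receptors of the TNF receptor superfamily. In T cells, engagement of the antigen receptor raises TNF transcription through NFAT, NF-κB and CREB or AP-1 factors within the first hours, and AU-rich elements make the TNF message short-lived. LTA and LTB products combine into a membrane-bound heterotrimer that signals through LTBR and organizes lymphoid tissue, LTA alone is secreted, and CD40LG on helper T cells activates B cells and dendritic cells through CD40.

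TNF, LTA and LTB lie side by side in the class III region of the major histocompatibility complex. On GRCh38 with GENCODE 44, LTA occupies 31572054 to 31574324 of chromosome 6, plus strand, TNF follows on the same strand from 31575565 to 31578336, and LTB is on the minus strand from 31580525 to 31582522. Only 1240 bases separate LTA from TNF and 2188 separate TNF from LTB, so that the 3 genes span 10469 bases. CD40LG lies elsewhere, at 136648158 to 136660390 of chromosome X, also plus strand. RefSeq promoter windows on GRCh38.p14 were matched for 3 of the 4 genes. The bases before the RefSeq start are printed here since the 3 genes share a locus. Whether these bases bear on any difference between the lines was not tested. Capitals mark matches to a searched motif, and all runs read 5′ to 3′ on the strand of the gene. The TNF run is chr6:31575315-31575564 (plus), the LTA run is chr6:31571849-31572053 (plus) and stops before the first annotated exon of LTA, and the LTB run is chr6:31582426-31582675 (minus). The LTA run has 205 bases and the others 250. The LTB run precedes the start of LTB-210, the canonical transcript, at 31582424, but its bases up to 31582522 lie within the gene as GENCODE 44 annotates it, because the noncoding LTB-213 starts there.
TNF: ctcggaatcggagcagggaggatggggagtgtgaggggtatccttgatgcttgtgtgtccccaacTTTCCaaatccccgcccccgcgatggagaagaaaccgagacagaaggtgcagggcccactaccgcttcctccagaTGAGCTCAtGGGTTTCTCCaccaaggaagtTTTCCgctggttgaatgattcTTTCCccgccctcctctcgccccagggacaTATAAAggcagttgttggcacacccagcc
LTA: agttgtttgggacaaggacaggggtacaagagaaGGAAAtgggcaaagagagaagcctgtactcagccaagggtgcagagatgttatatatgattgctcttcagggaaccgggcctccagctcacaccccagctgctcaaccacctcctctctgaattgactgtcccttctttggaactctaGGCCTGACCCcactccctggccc
LTB: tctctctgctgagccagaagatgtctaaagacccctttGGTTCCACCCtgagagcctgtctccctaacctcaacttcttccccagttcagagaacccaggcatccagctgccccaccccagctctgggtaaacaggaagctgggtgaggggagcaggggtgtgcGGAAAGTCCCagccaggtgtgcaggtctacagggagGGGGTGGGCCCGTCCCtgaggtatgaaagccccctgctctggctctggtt

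A set of 7 motifs was searched on both strands, except TATAAA, which was searched on the strand of the gene. Matches are descriptions of letters, not of bound factors. The loose NF-κB pattern GGGNNNNNCC was found 1 time in the TNF run, 1 time in the shorter LTA run and 7 times in the LTB run, and it is in 54.4% of 35116 promoter windows of 250 bases. The LTB matches partly overlap, those at chr6:31582465-31582474 are the same bases read on both strands, and all but the match at chr6:31582628-31582637 lie within the annotated span of LTB-213. The stricter GGGNNTTTCC matched only in LTB, on the opposite strand at chr6:31582502-31582511, where it overlaps the NFAT core match of that gene, and is in 1.73% of windows. The NFAT core GGAAA matched 3 times in TNF and 1 time each in LTA and LTB, against 55.6% of windows with at least 1 match. Of the 3 runs only that of TNF held TGAGCTCA, the variant cyclic AMP response element known from its promoter, which is in 0.581% of windows. The TNF run alone also held a TATAAA box that starts 29 bases before the gene, which is in 6.8% of windows. The full element TGACGTCA, in 1.65% of windows, and the AP-1 pattern TGANTCA, in 6.57%, had no match in the 3 runs. LTA-213, the LTA transcript with most counts, starts at 31572289, and the bases between the LTA run and that start were not searched. The LTA matches therefore do not describe the bases just before LTA-213.

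WT libraries totalled 20483642 to 31737616 counts and CD47- libraries 16107921 to 28525524. Levels are given as CPM, which are counts scaled to library totals corrected by the TMM method, and 3 counts, taken as the limit of detection, equal 0.0979 to 0.156 CPM across libraries. All 4 genes passed the low-count filter, as did 16327 genes in total. The RNA carried T cell markers at similar sums in both lines, with all 10 listed markers above that limit in every library and sums of 1462 to 1923 CPM (WT) and 1476 to 2093 CPM (CD47-). The myeloid, epithelial and fibroblast lists each summed to at most 7.94 CPM in any library, and the B cell list reached 54.2 CPM (WT) and 10.4 CPM (CD47-), nearly all of it CD79A. WT cells had 317 CPM of CD47 mRNA and CD47- cells 147 CPM, with no overlap between the lines. In bulk RNA, fewer expressing cells and less RNA per cell cannot be told apart.

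All 4 ligand genes were higher in CD47- than in WT cells, each in 10 of 10 pairs matched by treatment and time. The share of all genes with 1 direction in all 10 pairs, or with no overlap between the lines, was not counted. The pair counts and overlaps are therefore not read as particular to these genes. TNF stood apart by the size of its difference, and CD40LG differed least. In the edgeR quasi-likelihood test with Benjamini-Hochberg adjustment over 16327 genes, 40.4% of all genes were called between the lines, 19.8% higher and 20.6% lower in CD47- cells, so a call in this comparison is common. Ranked by signed log2 fold change, TNF was above 99.1% of tested genes, LTA above 94.8%, LTB 89.0% and CD40LG 76.1%.

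TNF, the main pro-inflammatory cytokine of the family, ranged in WT cells from 0.599 CPM, with a median of 1.49, to 3.37 CPM. In CD47- cells it ranged from 10.7 CPM, with a median of 18.3, to 26.1 CPM. The lines did not overlap, and the lowest CD47- library was above the highest WT library. These levels rest on 15 to 79 counts per WT library and 243 to 682 counts per CD47- library. TNF averaged 1.82 ± 1.00 CPM for WT and 17.9 ± 5.59 CPM for CD47- cells (SD, n = 10 each), a 9.86-fold difference (log2 fold change 3.30, SE 0.288, edgeR adjusted p = 3.25e-09). Within pairs the ratio of CD47- to WT ran from 4.66 to 19.1 with a median of 12.3.

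LTA, which encodes the secreted lymphotoxin and the shared chain of the heterotrimer, ranged in WT cells from 1.00 CPM, with a median of 1.75, to 2.68 CPM. Across CD47- libraries it ran from 2.86 CPM, with a median of 3.87, to 6.27 CPM. Again the lines did not overlap, although the gap between them was narrow. Its means were 1.76 ± 0.550 and 4.24 ± 1.21 CPM (SD, n = 10 each), which is 1.27 higher on the log2 scale (SE 0.192, adjusted p = 1.21e-05 by edgeR). The ratio within pairs ran from 1.07 in CD3+CD28+TSP1 cells at 1 h to 4.09 at 6 h under the same treatment. A long noncoding RNA of GENCODE 44, ENSG00000289406, overlaps the first exon of LTA on the opposite strand and has no row in the gene table, and because the strand setting of the counting is not stated, reads from it and from LTA cannot be told apart.

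LTB, the chain that holds the lymphotoxin heterotrimer at the membrane, ranged in WT cells from 1.20 CPM, with a median of 1.91, to 2.94 CPM. CD47- libraries ran from 1.71 CPM, with a median of 3.44, to 4.63 CPM. Here the lines overlapped. LTB had means of 1.99 ± 0.667 and 3.204 ± 0.838 CPM (SD, n = 10 each) and differed by 0.68 on the log2 scale (SE 0.196, adjusted p = 0.00797 by edgeR). The pair ratios ran from 1.04 to 3.16 with a median of 1.56. Fits on fewer libraries kept no pair as a block and had no time term. In these fits LTB was not called in the 4 unactivated pairs (0.81, adjusted p = 0.121), the 6 activated pairs (0.64, adjusted p = 0.0662) or the pairs at 6 h (0.66, adjusted p = 0.0509).

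CD40LG, the most abundant of the 4 in WT cells, ranged there from 8.21 CPM, with a median of 12.0, to 14.3 CPM. In CD47- cells it ranged from 11.8 CPM, with a median of 14.4, to 16.2 CPM. The lines overlapped when time points were mixed. Its means were 11.5 ± 2.19 and 14.2 ± 1.60 CPM (SD, n = 10 each) and the log2 difference was 0.30 (SE 0.108, adjusted p = 0.0279 by edgeR). When each pair was kept as a block the log2 fold change was 0.32 with an adjusted p of 0.000932, but without the untreated WT library the unblocked adjusted p was 0.0519 at a log2 fold change of 0.26. Pair ratios for CD40LG ran from 1.04 to 1.47, with 1.23 as the median. The call was also lost without a low-count filter (0.31, adjusted p = 0.0511) and in the unactivated, activated, 3 h and 6 h pairs taken alone (adjusted p from 0.077 to 0.21). None of these fits kept pairs as blocks or had a time term.

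**Figure D1:**
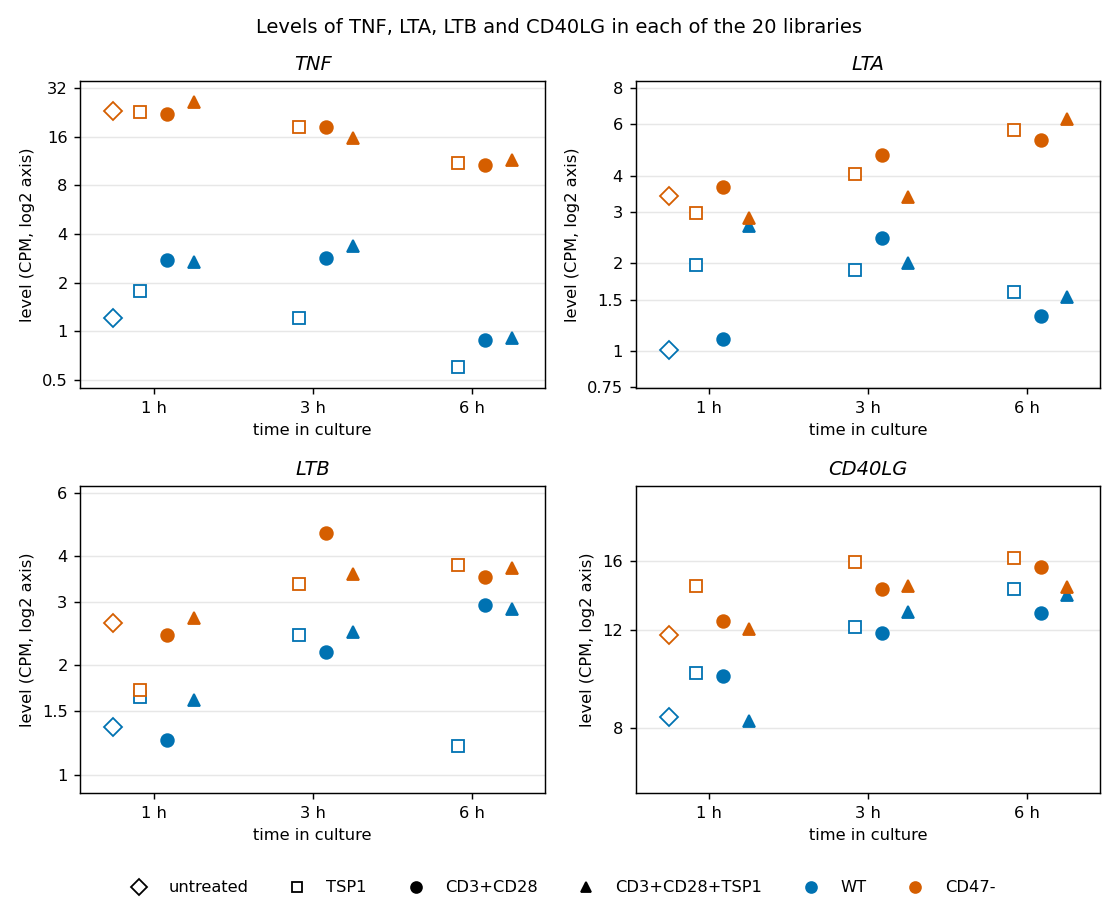
CPM (log2 axis) of the 4 genes in each of the 20 libraries by time, with WT in blue, CD47- in orange, activated libraries as filled symbols and untreated or TSP1 libraries as open symbols; each symbol is 1 library and there are no error bars. All CD47- libraries lie above all WT libraries for TNF (10.7 to 26.1 against 0.599 to 3.37 CPM), while the lines overlap for LTB and CD40LG. On the log2 scale the lines differ least for CD40LG.

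**Figure D2:**
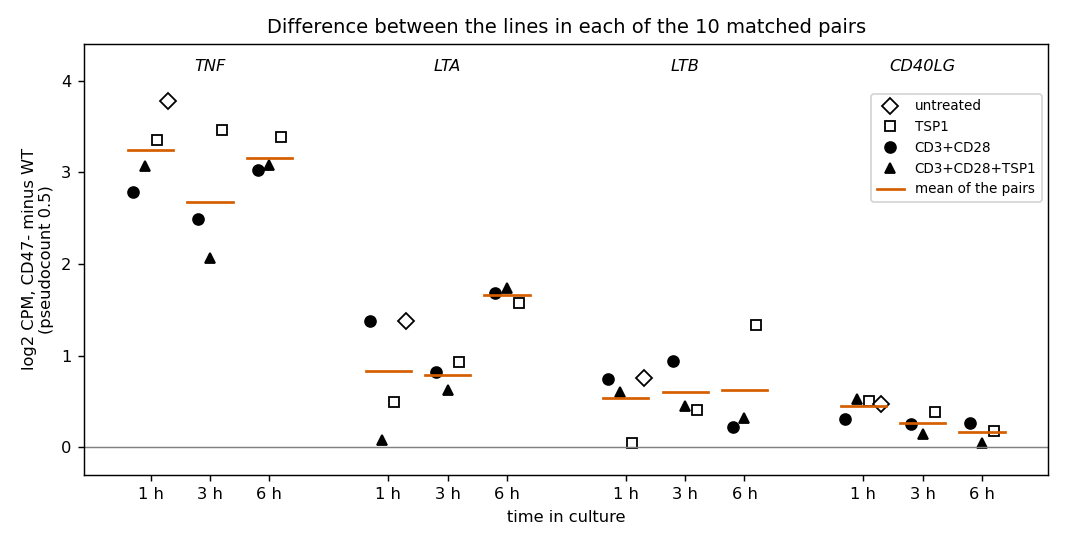
Difference in log2 CPM (pseudocount 0.5) between CD47- and WT for each of the 10 pairs of equal treatment and time, as symbols by treatment, with an orange line at the mean of the pairs of a time point. Every pair lies above 0 for the 4 genes, and the unactivated TNF pairs (3.36 to 3.78) lie above the activated ones (2.07 to 3.08).

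Set per kilobase of the canonical transcript, which allows genes to be compared, the order of the levels differed between the lines. In WT cells CD40LG was highest with 6.19 ± 1.184 CPM per kb, followed by LTB with 2.23 ± 0.747, LTA with 1.24 ± 0.388 and TNF with 1.09 ± 0.598 CPM per kb (SD, n = 10). CD40LG was above the other 3 in 10 of 10 WT libraries and LTB was above LTA in 9, while LTA and TNF were not separated, LTA being higher in 7 of 10. In CD47- cells TNF had 10.7 ± 3.33 CPM per kb, CD40LG 7.65 ± 0.862, LTB 3.59 ± 0.938 and LTA 3.00 ± 0.854 (SD, n = 10). TNF was above LTA and LTB in all 10 CD47- libraries but above CD40LG in 7, and LTB was above LTA in 8. With the longest transcript as the length, LTB fell to 1.44 CPM per kb in WT cells, near LTA at 1.17, and to 2.31 CPM per kb in CD47- cells, below LTA at 2.81, so the order of the lymphotoxins rests on the length used.

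Activation on anti-CD3 and anti-CD28, with or without TSP1, was compared with untreated and TSP1 cells within each line, with time in the model. TNF rose in activated WT cells and none of the other 3 ligand genes was called. At 1 h the WT levels of TNF were 1.20 CPM untreated, 1.77 with TSP1, 2.77 with CD3+CD28 and 2.68 with CD3+CD28+TSP1. At 3 h they were 1.21 CPM with TSP1, 2.85 with CD3+CD28 and 3.37 with CD3+CD28+TSP1. At 6 h they were 0.599, 0.879 and 0.914 CPM in the same order. The activated WT libraries were above the unactivated ones at each of the 3 time points. At 3 h and 6 h this set 2 activated libraries against 1 unactivated library, and the share of all genes so separated was not counted. TNF was 0.97 higher on the log2 scale (SE 0.147, adjusted p = 0.00534 by edgeR), and 0.398% of all genes were called in this comparison. The call was lost without 1 library. Leaving out the WT library with TSP1 at 3 h, the log2 fold change was 0.78 with an edgeR adjusted p of 0.118. In smaller comparisons the log2 fold change was 0.93 for CD3+CD28+TSP1 against TSP1 (adjusted p = 0.161, with 15 genes called in all) and 1.20 for CD3+CD28 against untreated (adjusted p = 0.565). The latter has 1 untreated library and called 0 genes of the whole table, so its p says little on TNF.

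In CD47- cells TNF was at its high level with and without activation. At 1 h it was 23.0 CPM untreated, 22.7 with TSP1, 22.1 with CD3+CD28 and 26.1 with CD3+CD28+TSP1. At 3 h it was 18.3 CPM with TSP1, 18.4 with CD3+CD28 and 15.7 with CD3+CD28+TSP1, and at 6 h it was 10.96, 10.7 and 11.4 CPM. The states overlapped at 1, 3 and 6 h. The log2 fold change came to 0.0091 (SE 0.0958, interval of 2 SE from -0.18 to 0.20, edgeR adjusted p = 1), which leaves out a fold rise of the size seen in WT cells. It does not leave out a rise by as many CPM. WT means were 1.19 CPM unactivated and 2.24 CPM activated, while the unactivated CD47- mean was 18.7 CPM. In this comparison edgeR called 0 genes (0%), with 375 genes at an unadjusted p under 0.05, and DESeq2 and limma voom also called 0. The test of the difference between the lines gave a log2 difference of -0.96 for TNF (SE 0.176, unadjusted p = 4e-05), whose edgeR adjusted p was 0.131. That difference was called by DESeq2 (adjusted p = 0.00808) and by edgeR without a low-count filter (adjusted p = 0.00282), and edgeR called 1 gene, or 0.00612%, in this test. In every alternative the TNF difference kept its sign.

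None of LTA, LTB and CD40LG was called with activation in either line, and their estimates were smaller than that of TNF in WT cells only. In WT cells the log2 fold changes were 0.16 (SE 0.229) for LTA, 0.30 (SE 0.217) for LTB and -0.028 (SE 0.0824) for CD40LG. The LTA value depended on the setting. Over 7 alternatives it ran from 0.15 to 0.73, and its difference between the lines ran from -0.73 to -0.073. In CD47- cells they were 0.014 (SE 0.201), 0.16 (SE 0.195) and -0.12 (SE 0.0801). All activated libraries were above all unactivated ones at 1 of 3 time points for LTA in WT cells and for LTB in each line, and at 0 of 3 for LTA in CD47- cells and for CD40LG in both lines. The share of all genes so separated was not counted, so these counts are not read as a result about the 3 genes. For CD40LG the activated CD47- libraries were below the TSP1 library at 3 h and at 6 h. For CD40LG the intervals of 2 SE, which were -0.19 to 0.14 for WT and -0.28 to 0.043 for CD47- cells, leave out a fold rise of the size seen for TNF.

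A list of 6 early activation genes gave the activation of these libraries for comparison. All 6 were called higher in activated WT cells, where 0.398% of all genes were called. Their median log2 fold change was 1.70, beside -0.0015 over all genes, led by CD69 at 1.99 (SE 0.232) and EGR2 at 1.84 (SE 0.250). In CD47- cells 0 of 6 were called and their median was 0.42, but 0% of all genes were called, so this count says nothing particular to the list. The test of the difference between the lines called 1 of the 6, FOS, which was the only gene called of all (0.00612%). The median of the list there was -1.31. TNF was called with activation in WT cells as well, at 0.97, and its difference from these genes was not tested. Between the lines 0 of 6 were called higher and 3 lower in CD47- cells, where 19.8% of all genes were called higher and 20.6% lower. A list of 6 is too short to compare with these shares. The median was -1.87, beside -0.0066 over all genes. CD69 at -2.33 (SE 0.581) and NR4A1 at -2.19 (SE 0.642) were among those called. FOS at 0.037 (SE 0.420) and EGR2 at -1.93 (edgeR adjusted p = 0.0501) were among those not called. By 6 h all 6 were called lower in both lines, as was TNF, with medians of -4.49 in WT and -3.01 in CD47- cells. At 6 h 52.6% of all genes were called either way in WT and 53% in CD47- cells. Among the parts of the antigen receptor complex, CD3G was higher by 0.34 (adjusted p = 0.0242) and CD3E by 0.18 (adjusted p = 0.0494) on the log2 scale in CD47- cells, CD3D (0.13) and CD247 (-0.083) were not called, and TRAC, the alpha chain, fell by 3.08. CD28 was higher by 2.35. The part of these genes in the activation values was not tested. Of 12 other cytokines of activated T cells only IL4, IL10 and IL13 passed the filter, and IL2 and IFNG did not. IL10 and IL13 were not called with activation in either line, at 1 to 15 and 5 to 26 counts per WT library. IL4 was not called either, and with at most 6 counts per WT library its value there is not read.

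None of the 4 genes was called with TSP1. In CD3+CD28+TSP1 against CD3+CD28, TNF changed by 0.092 (SE 0.177) on the log2 scale in WT and by 0.045 (SE 0.126) in CD47- cells. LTA changed by 0.36 (SE 0.263) and -0.19 (SE 0.230), LTB by 0.14 (SE 0.278) and -0.055 (SE 0.262), and CD40LG by -0.0032 (SE 0.0979) and -0.049 (SE 0.0964). The smallest edgeR adjusted p among these was 0.747. Intervals of 2 SE ran from -0.26 to 0.45 for TNF in WT cells and from -0.17 to 0.88 for LTA, so moderate changes in LTA cannot be told from none here. For LTA in WT cells the 1 h pair differed by 0.99, against -0.23 for the 3 h pair and 0.16 for the 6 h pair. Leaving out each library in turn, the fitted LTA value ran from 0.014 to 0.73. Its lowest values, 0.014 and 0.080, came on dropping the 1 h library of activated WT cells without TSP1 and the one with TSP1, respectively. TSP1 alone was set against a single untreated library per line, and its smallest member p was 0.0608 for LTA in WT cells (log2 fold change 0.91, SE 0.448, edgeR adjusted p = 0.683). Across the 5 TSP1 tests, the interaction included, edgeR called 0 genes (0%), with between 366 and 1771 genes at an unadjusted p under 0.05, DESeq2 called between 0 and 2, and limma voom 0.

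**Figure D3:**
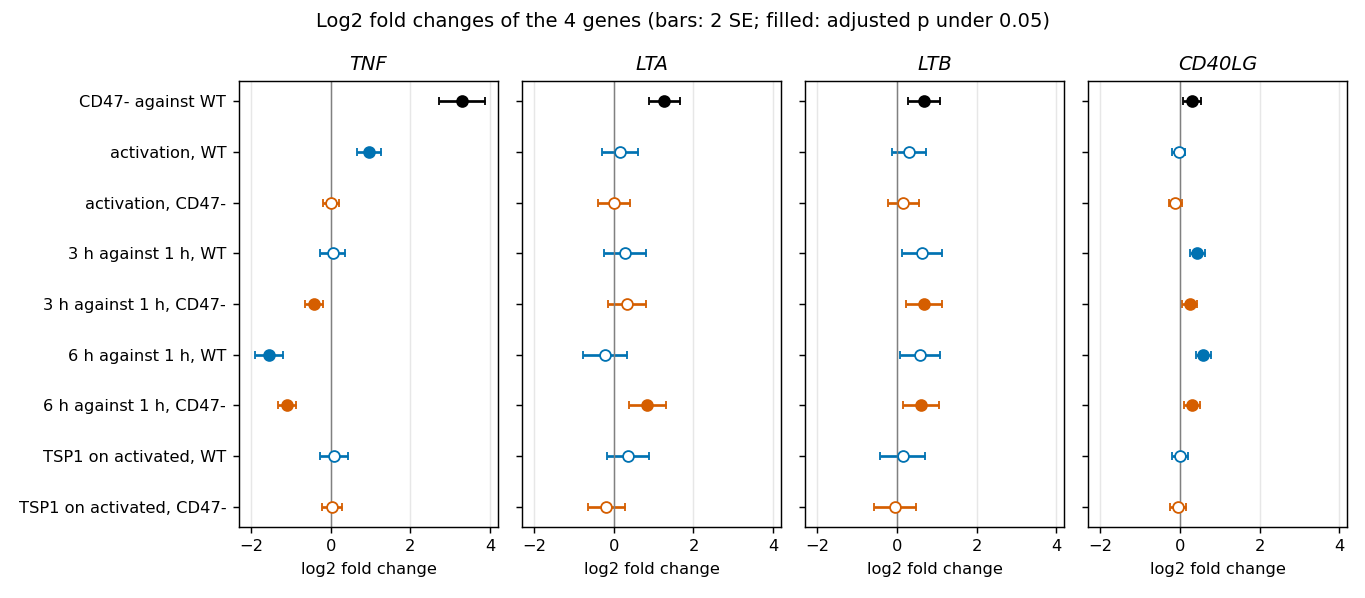
Log2 fold change of each gene in 9 comparisons, with bars of 2 SE and filled symbols where the edgeR adjusted p was under 0.05; black is CD47- against WT, blue is within WT and orange within CD47- cells. TNF is the only gene with a filled symbol for activation (0.97 in WT), and the only one called lower at 6 h than at 1 h.

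The 4 genes followed different courses between 1 h and 6 h. TNF fell in both lines while CD40LG rose in both, and LTA was called higher at 6 h in CD47- cells. LTB was higher at 6 h by similar amounts in both lines, with a call in CD47- cells and an adjusted p just above the threshold in WT cells. These time terms compare libraries of 1 line at different times with the activation state in the model. Changes over time were common in these libraries, with 52.6% of genes called in WT and 53% in CD47- cells at 6 h, and 35.7% and 37.1% at 3 h.

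Mean TNF in WT cells was 2.10 ± 0.753 CPM at 1 h (SD, n = 4), 2.48 ± 1.13 at 3 h and 0.797 ± 0.172 at 6 h (n = 3 each). In CD47- cells it was 23.5 ± 1.81 CPM at 1 h (SD, n = 4), 17.5 ± 1.51 at 3 h and 11.03 ± 0.379 at 6 h (n = 3 each), and the 3 time points did not overlap. By 6 h the log2 change in WT cells was -1.54 (SE 0.181, adjusted p = 1.28e-06 by edgeR) and that in CD47- cells -1.09 (SE 0.116, adjusted p = 3.9e-07). Only 2.33% of genes had a lower value in WT and 4.52% in CD47- cells. At 3 h TNF had fallen in CD47- cells (-0.43, SE 0.113, adjusted p = 0.00675 by edgeR) and was at 0.056 (SE 0.156, adjusted p = 0.813) in WT cells, a difference between the lines that was not called (-0.48, adjusted p = 0.18). At 6 h the difference was 0.45 (adjusted p = 0.17).

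Mean LTA in WT cells was 1.69 ± 0.791 CPM at 1 h (SD, n = 4), 2.12 ± 0.289 at 3 h and 1.48 ± 0.147 at 6 h (n = 3 each). In CD47- cells it went from 3.22 ± 0.373 CPM at 1 h (SD, n = 4) to 4.05 ± 0.674 at 3 h and 5.78 ± 0.473 at 6 h (n = 3 each). In CD47- cells the 6 h libraries lay above all earlier ones, while those of 1 h and 3 h overlapped. Its 6 h log2 fold change was 0.84 (SE 0.233, adjusted p = 0.00557 by edgeR) for CD47- and -0.22 for WT cells (SE 0.272, adjusted p = 0.531). The difference between the lines was 1.05 (SE 0.359, edgeR adjusted p = 0.0535), which missed the threshold, and it was called by DESeq2 (adjusted p = 0.0252), without a filter (0.0256), with upper-quartile factors (0.0428) and with a term for each treatment (0.0285). It was not called by limma voom (0.79, adjusted p = 0.149). Over 20 fits that each left out 1 library it ran from 0.72 to 1.29 and was called in 3. Across the tests of such differences 16.4% of genes were called at 6 h and 3.77% at 3 h.

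LTB was at 1.46 ± 0.193 CPM at 1 h (SD, n = 4), 2.36 ± 0.160 at 3 h and 2.34 ± 0.987 at 6 h (n = 3 each) in WT cells. The WT library with TSP1 at 6 h was low at 1.20 CPM, while the other 6 h libraries were at 2.87 and 2.94 CPM. In CD47- cells LTB was at 2.37 ± 0.450, 3.86 ± 0.680 and 3.67 ± 0.137 CPM. At 6 h it was 0.61 higher on the log2 scale in CD47- (SE 0.228, adjusted p = 0.032 by edgeR) and 0.59 in WT cells (SE 0.252, adjusted p = 0.0592), and the 3 h values were 0.68 (SE 0.228, adjusted p = 0.0274) and 0.64 (SE 0.249, adjusted p = 0.0555). The difference between the lines at 6 h was 0.020, with a wide interval of 2 SE from -0.68 to 0.72. Both CD47- calls were lost when 1 of 4 CD47- libraries was left out, with adjusted p up to 0.181 at 6 h, when the TSP1 library at that time was left out, and 0.105 at 3 h, when the CD3+CD28 library at that time was left out. In WT cells the 6 h value became a call without the TSP1 library at 6 h (1.02, adjusted p = 0.00148), also without that at 1 h, and with limma voom (0.63, adjusted p = 0.0488).

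In WT cells CD40LG averaged 9.14 ± 0.984 CPM at 1 h (SD, n = 4), 12.3 ± 0.570 at 3 h and 13.7 ± 0.698 at 6 h (n = 3 each). The CD47- means were 12.7 ± 1.19, 14.9 ± 0.961 and 15.4 ± 0.936 CPM. The WT rise was without overlap between 1 h and 3 h, whereas the CD47- libraries of 1 h and 3 h overlapped. CD40LG was 0.59 higher on the log2 scale at 6 h in WT (SE 0.0962, adjusted p = 5.63e-05 by edgeR) and 0.30 in CD47- cells (SE 0.0944, adjusted p = 0.0118). At 3 h it was 0.44 (SE 0.0975, adjusted p = 0.00191) and 0.25 (SE 0.0946, adjusted p = 0.0469), and the latter call was lost in 12 of 20 fits that each left out 1 library. The gap between the lines was 0.45 on the log2 scale at 1 h, 0.26 at 3 h and 0.17 at 6 h as the mean over pairs, and the difference in the time course was not called (-0.28, adjusted p = 0.172).

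The genes whose levels ran most like each member were also found. After the line means were subtracted, log2 CPM (pseudocount 1) over the 20 libraries was compared with 14089 genes whose mean on that scale was at least 1. TNF was most like AC093673.1 (Pearson r = 0.96, Spearman rho = 0.96), CD69 (r = 0.95, rho = 0.90) and ICOS (r = 0.95, rho = 0.90), and CD69 is the early activation antigen and ICOS a costimulatory receptor of T cells. LTA was most like ALKBH5, HSPA2 and PFKP (r = 0.83 to 0.85), LTB most like HOXA6, SNX8 and TOLLIP (r = 0.85 to 0.87), and CD40LG most like MESD, SGPL1 and CHRNA9 (r = 0.92 for each). All libraries of a time point share that time, so these values describe a common course and carry no test. With a pseudocount of 0.5 or 2, only AC093673.1 stayed among the 3 genes most like TNF, 2 and 3 of the 3 stayed for LTA, 3 and 3 for LTB, and 3 and 2 for CD40LG. Without subtracting the line means, 0 of the 3 stayed for TNF, LTA and LTB and 1 for CD40LG, so these genes depend on that step.

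Transcripts told less than genes since counts were few. TNF has 1 transcript in the isoform table, and the CD40LG counts all went to CD40LG-202 (2722 counts over WT and 3390 over CD47- libraries), while CD40LG-201 had 0, which allows a share of up to 0.135% in WT and 0.109% in CD47- cells. LTA counts went mostly to LTA-213, which starts at 31572289, with a share of 68.0 ± 38.1% in WT and 86.6 ± 10.9% in CD47- cells (SD, n = 10 each). LTA-216, a retained-intron transcript, took all 20 LTA counts of the untreated WT library and 79% of the 30 counts of the WT CD3+CD28 library at 6 h, 0 in 6 of 10 WT libraries and 0 in 9 of 10 CD47- libraries. Such jumps between 0 and 100% at 20 to 60 counts show how unevenly the few reads were divided. Pooled over libraries, LTA-216, at positions 31572270 to 31574324, had 16.4% of LTA counts in WT (exact 95% interval 12.8 to 20.2%) and 0.474% in CD47- cells (0.160 to 1.14%), where the intervals cover counting error only.

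LTB-210, with 4 exons, and LTB-211, which lacks the 46-base second exon of LTB-210, are both annotated as protein coding. LTB-210 held 31.3 ± 17.0% of LTB counts in WT and 53.8 ± 16.2% in CD47- cells, and LTB-211 held 42.5 ± 24.6% and 25.1 ± 10.8% (SD, n = 10 each). Shares of both overlapped between the lines. Among transcripts, 15.1% of 55450 tested transcripts were called between the lines. LTB-210 was called higher in CD47- cells (log2 fold change 1.44, SE 0.478, edgeR adjusted p = 0.0465) and lost the call in 14 of 20 fits that each left out 1 library, while LTB-211 was at -0.20 (SE 0.424, adjusted p = 0.821). LTA-213 was at 1.51 (SE 0.514, adjusted p = 0.052), TNF-208 at 3.31 (SE 0.303, adjusted p = 7.94e-08) and CD40LG-202 at 0.32 (SE 0.124, adjusted p = 0.0867). When each pair was kept as a block CD40LG-202 was called (0.34, edgeR adjusted p = 0.00662). Whether the share of a transcript itself differed between the lines was not tested.

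**Figure D4:**
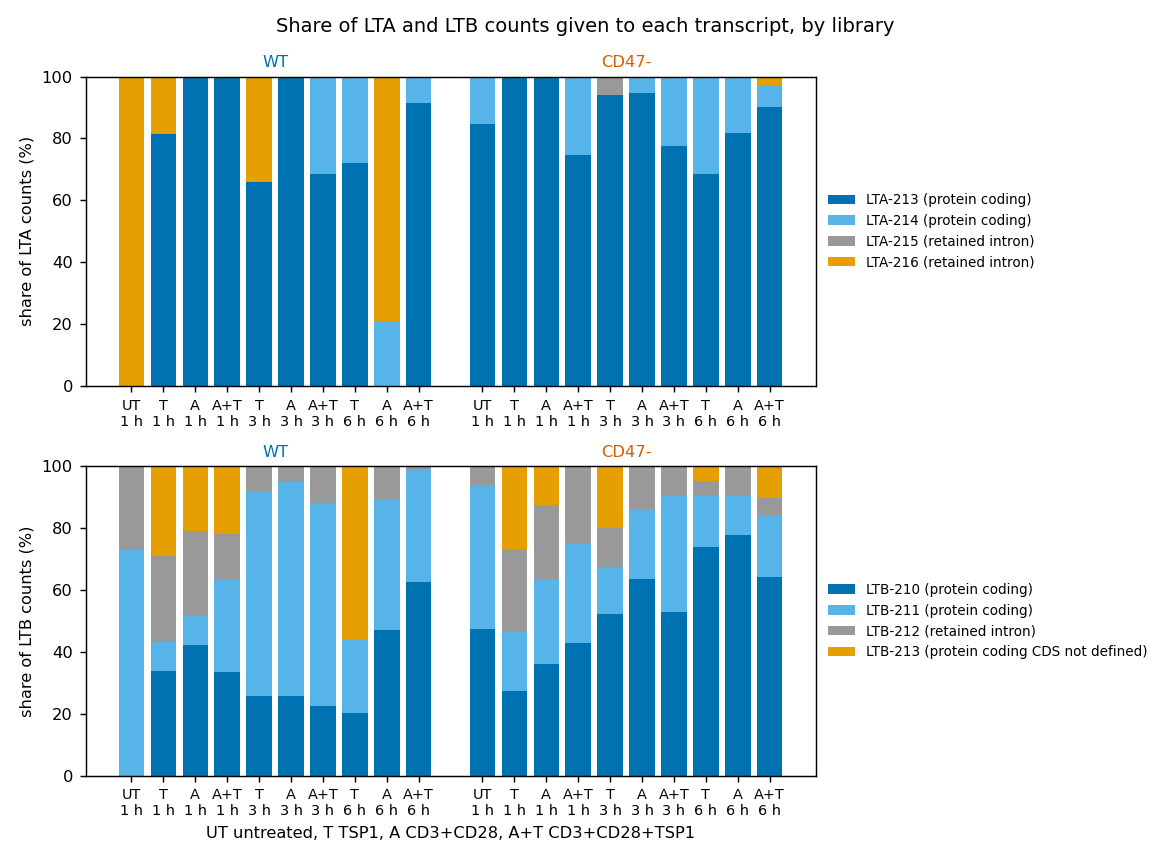
Stacked bars of the share (%) of LTA counts (top) and LTB counts (bottom) that each transcript received in each library, with WT on the left, CD47- on the right and libraries ordered by time. LTA-213 leads in all CD47- libraries, LTA-216 fills the untreated WT bar, and LTB shares vary from library to library in both lines.

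The other genes of the family gave the setting of these ligands. Of 14 other TNF superfamily ligands 8 passed the filter, 4 of them were called higher and 2 lower in CD47- cells (40.4% of all genes were called either way), and their median log2 fold change was 0.50 beside -0.0066 over all genes. TNFSF14 (LIGHT, which shares LTBR with the lymphotoxins) rose by 1.95 (SE 0.251), TNFSF10 (TRAIL) by 1.32 (SE 0.262), CD70 by 0.88 (SE 0.180) and TNFSF13B (BAFF) by 0.74 (SE 0.226). TNFSF8, the CD30 ligand, fell by 1.58 (SE 0.177) and EDA, the ectodysplasin gene, fell by 0.45 (SE 0.170). TNFSF4, the OX40 ligand, was at 0.0097 (SE 0.196) and TNFSF9, the ligand of CD137, at 0.26 (SE 0.168), neither called. With activation 0 of these 8 genes was called in either line, where 0.398% of all genes were called in WT and 0% in CD47- cells. TNFSF14 in activated WT cells was at 0.53 (interval of 2 SE from 0.080 to 0.98), and its difference from TNF was not tested.

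Of 5 receptors of the 4 ligands, 2 passed the filter and both were called higher in CD47- cells, as were 19.8% of all genes, and a count of 2 cannot be read against that share. TNFRSF1A, the receptor for TNF and secreted LTA that carries a death domain, was at 23.3 ± 8.11 CPM (WT) and 37.2 ± 6.97 CPM (CD47-) (SD, n = 10 each; log2 fold change 0.67, SE 0.165, edgeR adjusted p = 0.00222). TNFRSF14, the entry mediator that binds LTA and LIGHT, was at 9.81 ± 3.16 and 15.4 ± 6.47 CPM (log2 fold change 0.65, SE 0.223, adjusted p = 0.0236). TNFRSF1B, the second TNF receptor, did not pass the filter at 0.561 ± 0.357 and 0.291 ± 0.179 CPM. LTBR had at most 5 counts and CD40 at most 4 in any library, which is near the limit of detection. The receptors for CD40 ligand and for the lymphotoxin heterotrimer were therefore at or near background here, while that for TNF was well measured.

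**Figure D5:**
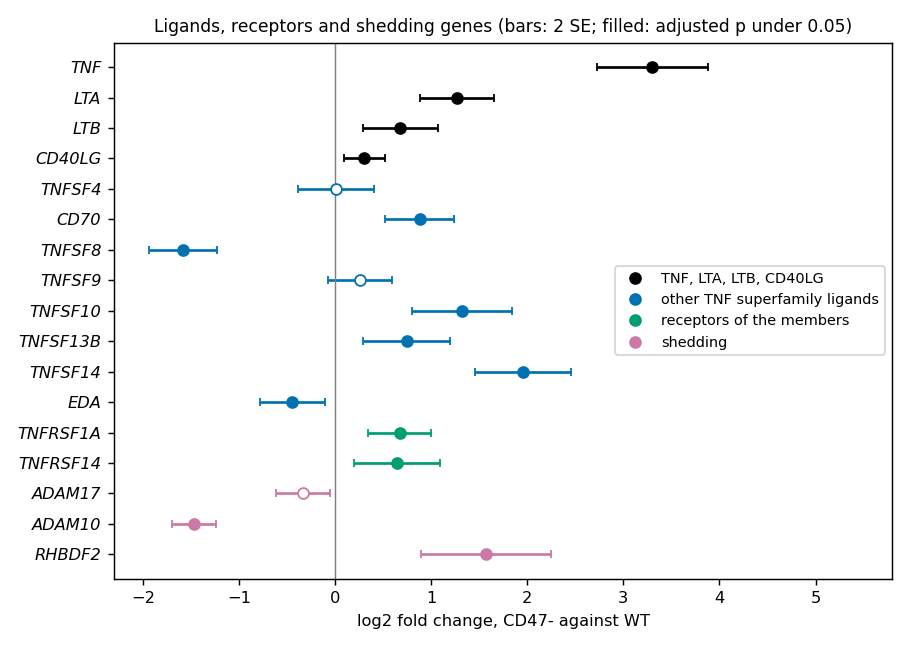
Log2 fold change of CD47- against WT for the 4 genes (black), the 8 other ligands that passed the filter (blue), 2 receptors (green) and 3 shedding genes (pink), with bars of 2 SE and filled symbols where the edgeR adjusted p was under 0.05. TNF has the largest value shown (3.30), and TNFSF8 (-1.58) and ADAM10 (-1.47) are the lowest.

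Genes that release these ligands or act on their messages and signals were called between the lines in both directions, at shares near or below the 40.4% of all genes or in lists too short to compare with it. ADAM17, the protease that cuts TNF from the membrane, was at -0.33 (SE 0.140, edgeR adjusted p = 0.0634), ADAM10, a related sheddase, fell by 1.47 (SE 0.113), and RHBDF2, which carries ADAM17 to the cell surface, rose by 1.57 (SE 0.340). Of 17 adaptors and kinases of the receptors, 3 were called higher and 5 lower, not far from the share over all genes, and those with the smallest p were TAB3 (-0.62, SE 0.0937), RIPK1 (0.30, SE 0.0665) and CHUK (-0.23, SE 0.0620). Among 8 proteins that bind AU-rich elements, ELAVL1, which stabilizes such messages, rose by 0.31 (SE 0.0741) and TIA1, which holds back their translation, fell by 0.34 (SE 0.0973). ZFP36, which speeds decay of TNF mRNA, was at 0.12 (SE 0.196, adjusted p = 0.665). IL4 had 6 counts or fewer in each WT library and 14 to 48 in CD47- libraries, and it passed the filter only through CD47- cells, so its call between the lines is not counted here. IL10 and IL13 were not called.

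Neighbours of the TNF locus were called in both directions. Of 6 tested neighbours 1 was called higher and 2 lower, near the share over all genes. AIF1 fell by 0.75 (SE 0.0780), NFKBIL1, which ends 13224 bases before LTA, fell by 0.70 (SE 0.130), and DDX39B rose by 0.19 (SE 0.0744). LST1, which begins 3601 bases after LTB, was at -0.53 (SE 0.286, edgeR adjusted p = 0.144). Near CD40LG, RBMX fell by 0.42 (SE 0.0861), HTATSF1 rose by 0.35 (SE 0.0829), and ARHGEF6, the adjacent gene, was at 0.015 (SE 0.125). NFKBIL1 and LST1, on either side of LTA, TNF and LTB, were thus not called higher in CD47- cells.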

How the data were processed

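Per the labels and the study's methods, the authors trimmed paired-end reads of poly(A)-selected RNA (Cutadapt 1.18), used STAR 2.4.2a for alignment to GRCh38, and estimated gene and isoform counts for GENCODE 36 by RSEM 1.3.3. The deposited tables hold RSEM expected counts, which can split reads that fit several genes or transcripts; the strand setting is not given in the sources used here. The deposited expected counts of 20 libraries were rounded to whole numbers; 2 columns of no sample were not used. The study's methods also name a batch correction with ComBat but no batch, and the labels give none. No batch term was fitted here, and the part of a batch in the line and time values was not tested.

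Genes passed edgeR's filterByExpr by line (minimum count 10, minimum total 15). CPM used TMM-scaled totals. The edgeR quasi-likelihood test (edgeR 4.0.16, R 4.3.3) was fitted to all 16327 genes, with Benjamini-Hochberg adjustment and a threshold of 0.05. Line was tested over 20 libraries; activation and time were tested in a model with both terms within each line, and TSP1 in a model with treatment and time. Pair differences used log2 of CPM plus 0.5. Transcripts were tested likewise. Positions are from GENCODE 44 on GRCh38. Alternatives were DESeq2 1.42.0, limma 3.58.1 voom with quantile normalization, upper-quartile factors, other filters, other sets of libraries, and each library left out in turn. The method was run on simulated data that held no line or time differences beyond the changes put in. No minimum recovery was set there for the TSP1 test, so that run is not used to judge the TSP1 results. Genes other than the 4 were named as members of the lists or, by likeness, as the 3 genes with the highest correlation per member. The 4 genes and all lists were chosen with earlier results of these data known. Depth is limited by counts as low as 15 per library for TNF; intervals of 2 SE rest on the spread between libraries, while the exact intervals of pooled shares and the limits of detection cover counting error only.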

Additional observations from a re-analysis of the deposited data

How the results depend on the processing

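The higher level in CD47- cells kept its call for TNF and LTA in every alternative that gave a value. DESeq2 left 60 of 65 tests on the same side of the threshold and direction, upper-quartile factors 63 of 65, no low-count filter 59 of 65, limma voom 53 of 65, the filter of at least 1 CPM in every library 29 of 31 and the pair block 7 of 9. TNF and LTA had no value under the 1 CPM filter, and TSP1 alone could not be fitted without the untreated library. Replicate numbers follow time, so the replicate block joins the 10 pairs of equal treatment and time; it moved CD40LG-202 to 0.34 (adjusted p = 0.00662) and LTB-211 to 0.088, and raised the genes called between the lines from 6596 to 8957. Log2 values are given throughout, and where no cause is named the cause was not tested.

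Within fewer libraries, CD40LG between the lines was not called in 4 unactivated pairs (0.40), 6 activated pairs (0.27), or pairs at 3 h (0.28) and 6 h (0.18), nor without a filter (0.31), and LTB was not called in the unactivated (0.81), activated (0.64) or 6 h pairs (0.66). None of these fits kept pairs as blocks. TNF activation in WT lost its call in CD3+CD28 against untreated (1.20), CD3+CD28+TSP1 against TSP1 (0.93) and without time terms (0.90), while its difference between the lines was called by DESeq2 (-0.96) and without a filter (-0.96). The 6 h difference of LTA between the lines was called with DESeq2 (1.07), a term for each treatment (1.23), no filter (1.05) and upper-quartile factors (1.11), but not with limma voom (0.79). CD40LG in CD47- cells lost its 3 h call with limma voom (0.21), treatment terms (0.20) and no filter (0.24), and its 6 h call with no filter (0.29). LTB in WT was called at 3 h with the 1 CPM filter (0.65), DESeq2 (0.64) and upper-quartile factors (0.66) and at 6 h with limma voom (0.63), which lost the 3 h call in CD47- cells (0.55). Among transcripts CD40LG-202 was called with the 1 CPM filter (0.35) and DESeq2 (0.34), LTA-213 with DESeq2 (1.52) and limma voom (2.25), and LTB-210 was not called with limma voom (1.56) or no filter (1.43).

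Values near 0 changed sign without a call. With limma voom these were LTA (-0.10) and LTB (-0.014) for the 3 h difference between lines, LTB for the 6 h difference (-0.084), LTA activation in CD47- (-0.031), TNF at 3 h in WT (-0.0028), TNF for the TSP1 difference (0.016) and LTB-211 (0.12). In CD3+CD28 against untreated they were CD40LG in CD47- (0.11) and WT (0.14), LTA in CD47- (-0.0018) and LTB in CD47- (-0.11), and in CD3+CD28+TSP1 against TSP1 LTA in CD47- (-0.053). Without time terms they were CD40LG for TSP1 on activated WT cells (0.016), CD40LG activation in WT (0.053) and TNF activation in CD47- (-0.11).

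Leaving out 1 library at a time gave these ranges for tests that changed a call or sign. Between lines, CD40LG ran from 0.26 to 0.34, LTA-213 from 1.354 to 1.68 and LTB-210 from 1.29 to 1.74. For activation in WT, TNF ran from 0.78 to 1.11, LTA from -0.10 to 0.31, LTB from -0.066 to 0.48 and CD40LG from -0.077 to 0.015; in CD47- cells TNF ran from -0.048 to 0.054 and LTA from -0.049 to 0.068; the difference ran from -0.29 to 0.12 for LTA and from -0.32 to 0.22 for LTB. At 3 h, TNF in WT ran from -0.082 to 0.22, CD40LG in CD47- from 0.20 to 0.30, LTB in CD47- from 0.55 to 0.77 and in WT from 0.42 to 0.76, with differences from -0.30 to 0.28 for LTA and -0.083 to 0.26 for LTB. At 6 h, LTA in WT ran from -0.44 to 0.13, LTB in CD47- from 0.49 to 0.70 and in WT from 0.41 to 1.02, with differences from 0.72 to 1.29 for LTA and -0.41 to 0.21 for LTB. For TSP1 on activated cells, TNF ran from -0.12 to 0.23 in WT, -0.062 to 0.17 in CD47- and -0.17 to 0.18 for the difference, LTB from -0.018 to 0.47 in WT and -0.21 to 0.080 in CD47-, and CD40LG from -0.085 to 0.10 in WT and -0.15 to 0.041 for the difference. For TSP1 alone, LTB in WT ran from -0.48 to 0.22 and TNF in CD47- from -0.024 to 0.12.

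Counts of genes called also moved. For activation in WT, 65 genes became 140 with DESeq2, 302 without a filter, 15 in CD3+CD28+TSP1 against TSP1, and 0 without time terms or in CD3+CD28 against untreated. Its difference between the lines called 1 gene, against 15 with DESeq2, 5 with limma voom and 218 without a filter. The 3 h difference called 616 genes, against 986 with DESeq2 and 1229 without a filter. Between the lines, 2706 genes were called in the 4 unactivated and 4067 in the 6 activated pairs. Without a filter, activation in CD47- cells called 105 genes and the 5 TSP1 tests between 84 and 540.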
